A study of Mus musculus with 35 samples.

Results

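Skin wounds of Col5a1CKO mice that had received wild-type fibroblasts were compared with Col5a1CKO wounds that had not, at day 14 after wounding, by bulk RNA sequencing. The members were taken from the sample titles, as 3 treated wounds (replicates a to c) and 7 untreated wounds (replicates a to g), together 10 of the 35 samples of the series, and every gene of the deposited count table was considered in them. Both groups carried the tamoxifen-inducible Col1a2CreERT transgene and floxed Col5a1 on both alleles, on a C57BL/6 background, and both received tamoxifen and a full-thickness excision of back skin at 8 to 12 weeks of age. Treated wounds were in addition injected along their sides with cultured skin fibroblasts of wild-type mice on day 3. The 7 WT wounds of day 14, from littermates with the floxed alleles and no Cre, enter only as reference values. The transgene is driven by Col1a2 regulatory sequences and so targets fibroblasts, not keratinocytes or blood cells. RNA was taken from a punch of the middle of the wound, and whether injected cells were still present there was not measured in these libraries. The study's methods give PBS to Col5a1CKO mice that received no fibroblasts, and its legends name 7 Col5a1CKO samples of day 14 with vehicle. The labels of the 7 untreated wounds name no vehicle, and untreated here means only that no fibroblasts were given.

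Type V collagen is a minor component of the collagen fibrils of skin. It starts fibril assembly, sets fibril diameter and is built into the same fibrils as types I and III, and fibroblasts are its main source in a wound. As a full-thickness wound closes, fibroblasts lay down a provisional matrix while keratinocytes move in from the edge, switch on the stress keratins K6, K16 and K17 and later rebuild the cornified barrier. RNA from the middle of a wound therefore mixes granulation tissue, leukocytes and as much epidermis as has reached it, and in bulk samples fewer cells of a type and less RNA per cell cannot be told apart.

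The counts assigned to genes were 29126549 to 35700325 per treated wound and 18913206 to 32625189 per untreated wound. The day 14 libraries fell into 2 sets by the GC content of the genes they counted well. The difference between the median log2(CPM + 1) of the 10% of genes richest in GC and the 10% poorest was 0.409 to 0.982 in the 3 treated wounds, 0.847 in untreated wound f and 0.734 in untreated wound g, but between −1.39 and −1.14 in untreated wounds a to e. The labels do not name these library sets. Only f and g therefore share the set of the treated wounds, so most results are given against all 7 untreated wounds and against f and g alone. The sets differed without any treatment, since in untreated wounds 518 genes (3.34% of those tested) were higher and 750 (4.84%) lower in f and g than in a to e at an adjusted p under 0.05 and at least 2-fold. Sex-linked RNA also moved with the comparison. Xist, the RNA that silences an X chromosome in female cells, was between 292 and 580 CPM in treated wounds and between 275 and 737 CPM in untreated wounds e, f and g, whereas untreated wounds a to d had at most 0.797 CPM of Xist and 193 to 308 CPM of the Y-linked Ddx3y. The 3 treated wounds and f and g are thus alike in sex-linked RNA, and the parts of set and sex in the comparison with all 7 wounds were not tested. For groups of these sizes, the paper lists a male among mice given fibroblasts and more females than males among those given vehicle. The libraries differ from this. Treated wounds had at most 0.309 CPM of Ddx3y, and more untreated wounds were high in Ddx3y than in Xist. The reason was not tested.

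Untreated wound g was as similar to the treated wounds as they were to each other. Over 14197 genes, the correlation of log2(CPM + 1) was 0.931 to 0.974 between treated wounds, 0.947 to 0.965 between treated wounds and g, 0.840 to 0.891 between treated wounds and f, and 0.792 between f and g. The pair of untreated wounds in the same library set thus differed more from each other than g did from any treated wound. These are descriptions across genes, which are not independent replicates.

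To find which genes differed in wounds that had received fibroblasts, edgeR's quasi-likelihood test was fitted over all genes. Of 15659 genes tested in 3 treated against 7 untreated wounds, 0 (0%) passed an adjusted p under 0.05 with at least a 2-fold difference. At an unadjusted p under 0.05 with at least 2-fold, 37 genes (0.236%) were higher and 854 (5.45%) lower in treated wounds. DESeq2 called 9 genes (0.0575%) higher and 10 (0.0639%) lower at its adjusted p. Against f and g, 0 of 15558 genes (0%) passed, DESeq2 called 0, and 18 genes (0.116%) were higher and 51 (0.328%) lower at an unadjusted p under 0.05 with at least 2-fold. The 854 genes lower against all 7 wounds had a median log2 fold change of −1.31. For the 813 of them that were also tested against f and g, that median was −0.08, and 4 of them were again lower at an unadjusted p under 0.05 with at least 2-fold. All 37 of the higher genes had a positive log2 fold change against f and g too, and 2 of them passed the unadjusted threshold there. Against wounds a to e alone, 882 genes (5.76%) were higher and 1330 (8.68%) lower at an adjusted p under 0.05, a comparison in which treatment and library set cannot be told apart. The same test was also fitted against f alone and against g alone. In those last fits the single untreated wound is assumed to vary like the treated wounds.

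Col5a1, the gene deleted in the fibroblasts of these mice, lies on chromosome 2 at 27741945 to 27895034 on the plus strand (NCBIM37, GENCODE M1). Its level was 173, 301 and 385 CPM in treated wounds a, b and c, where CPM is the count per 1000000 counts of a library, scaled by TMM factors. In untreated wounds it was lowest at 162, had a median of 346 and was highest at 622 CPM, with f at 346 and g at 228. The treated wounds lay wholly within the untreated range. The log2 fold change was −0.52 (SE 0.42, adjusted p = 0.571) against all 7 wounds and −0.01 (SE 0.42) against f and g. Counts over the whole gene do not separate donor from host transcripts or recombined from intact ones.

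To set Col5a1 against the collagens it is assembled with, its count was divided by the geometric mean of Col1a1, Col1a2 and Col3a1 in the same library. This ratio was 0.0145, 0.0254 and 0.0248 in treated wounds a, b and c, and 0.0101 to 0.0361 in untreated wounds, with 0.0198 in f and 0.0234 in g. The groups overlapped throughout. The mean log2 ratio was −5.58 ± 0.46 (SD, n = 3) in treated and −5.76 ± 0.58 (SD, n = 7) in untreated wounds, a difference of 0.18 with a 95% interval from −0.65 to 1.09, that is from 0.637- to 2.13-fold (2-sided exact permutation test, p = 0.633, 120 regroupings, smallest possible p = 0.00833). The difference from f and g was −0.04 (exact permutation test, p = 1, smallest possible p = 0.1). The 7 WT wounds had ratios of 0.0767 to 0.132, all above the highest treated wound. The size and sign of the difference varied with the reference gene. It turned to −0.34 with Col1a1 alone (exact permutation test, p = 0.358), was 0.57 with Col3a1 alone (exact permutation test, p = 0.283) and was 0.94 with Col5a2, the partner chain, alone (exact permutation test, p = 0.075). The ratio to Col5a2 was 0.144, 0.187 and 0.201 in treated wounds a, b and c, 0.149 in f, 0.193 in g and 0.0555 to 0.118 in a to e, so treated wounds were above a to e and overlapped with f and g.

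**Figure D1:**
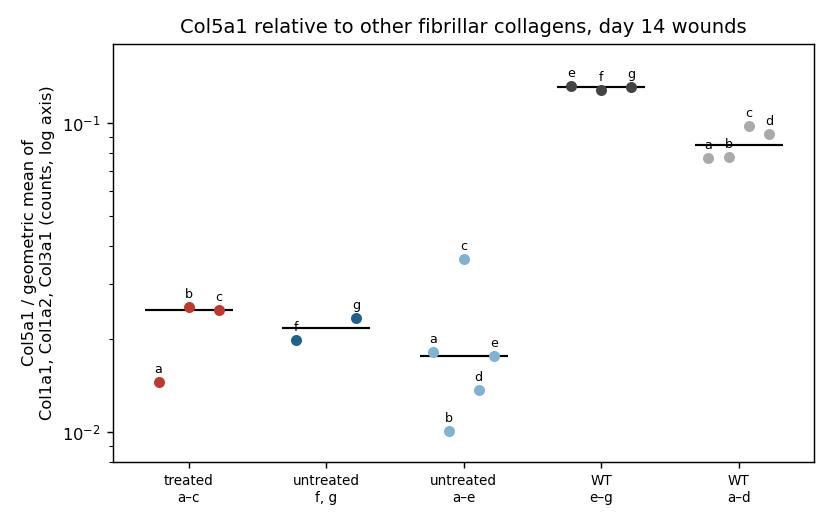
Ratio of Col5a1 counts to the geometric mean of Col1a1, Col1a2 and Col3a1 counts in each day 14 wound, on a log axis. Letters are replicates, lines are medians, and untreated and WT wounds are split by library set. Treated wounds, between 0.0145 and 0.0254, lie within the untreated range of 0.0101 to 0.0361 and below every WT wound.

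The genes of the fibrillar collagens and their partners were lower on average in treated wounds than in all 7 untreated wounds, but lay at the level of f and g. In the list of 15 genes, all tested, the median log2 fold change was −0.93 with 15 negative values against all 7 wounds, beside −0.04 over all genes, and −0.02 with 9 negative values against f and g, beside 0.01 over all genes. In the untreated wounds alone, f and g differed from a to e by a median of −1.06 in the same list. With library set as a covariate the list's median was −0.08 over the 10 wounds. It turned to 0.51 when the WT wounds of day 14 were fitted too. Over the 10 wounds that fit again measures treated wounds against f and g, since no treated wound is in the other set. The fit with WT wounds assumes the same set difference in both genotypes. The list summed to 9784 to 11589 CPM in WT e to g and 51916 to 89596 CPM in WT a to d. In untreated wounds it summed to 66773 CPM in f, 37733 CPM in g and 50587 to 141637 CPM in a to e. At an unadjusted p under 0.05 with at least 2-fold, 4 of the 15 were lower against all 7 wounds (background 5.45%) and 0 against f and g (background 0.328%). These 4 were Col3a1, the second most common skin collagen, Col5a2, the partner chain of Col5a1, Col12a1, which sits on the surface of fibrils, and Fbn1, the core of elastic microfibrils.

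Col3a1 stood at 13477, 13251 and 17172 CPM in treated wounds, at 20702 CPM in f and 12451 CPM in g, and at 21729.5 to 59999.6 CPM in a to e. Treated wounds thus lay between or near f and g and below all of a to e. The log2 fold change was −1.20 (SE 0.50, adjusted p = 0.375) against all 7 and −0.19 against f and g. Col5a2 stood at 1199, 1612 and 1915 CPM in treated wounds, at 2320.4 CPM in f and 1178 CPM in g, and at 2750.2 to 6764 CPM in a to e, with log2 fold changes of −1.63 (SE 0.57, adjusted p = 0.365) and −0.16. Fbn1 split in the same way (−1.39 against all 7 and −0.14 against f and g), and in Col12a1 (−1.45 and −0.05) f, at 2329 CPM, reached into the 2180.4 to 6576 CPM of a to e. Col1a1, the main collagen of skin, showed no such split, with 13881, 13912 and 17966 CPM in treated wounds, 19827 CPM in f, 10225 CPM in g and 7552 to 23779 CPM in a to e. Its log2 fold change was −0.22 (SE 0.40, adjusted p = 0.809), and that of Col1a2, the other chain of type I collagen, was −0.93 (SE 0.48, adjusted p = 0.423). Against f and g, Col1a1 gave 0.01 and Col1a2 gave −0.02.

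Among the other members, Col11a1 is a fibrillar chain that can join type V collagen. Its log2 fold change was −1.74 against all 7 wounds and 0.20 against f and g. Col5a3, the third type V chain, gave −0.52 and −0.02, and Col6a2, of the beaded filaments, gave −0.39 and 0.07. Against f and g, Tnxb, the tenascin-X gene, was the 1 gene of the 15 whose wounds did not overlap, at 38, 27.9 and 45.3 CPM in treated wounds against 47.1 CPM in f and 65.7 CPM in g, and over all genes 3.72% were separated in that direction. Untreated wounds a to e ranged from 10.9 to 233 CPM of Tnxb, on both sides of the treated wounds.

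The small leucine-rich proteoglycans and matricellular proteins, which coat fibrils and tune cell adhesion to them, had the most negative median of the matrix lists. Over the 20 genes it was −1.05 against all 7 wounds and −0.08 against f and g, while f and g differed from a to e by −1.29. With library set as a covariate it was −0.14 over the 10 wounds and turned to 0.57 with the WT wounds fitted too. At an unadjusted p under 0.05 with at least 2-fold, 8 of 20 were lower against all 7 wounds (5.45% of all genes) and 0 against f and g (0.328% of all genes), and the 8 were Aspn, Dcn, Lum, Ogn, Postn, Thbs2, Tnc and Vcan. Lum (lumican), which spaces collagen fibrils, stood at 487, 351 and 613 CPM in treated wounds, 811 CPM in f, 412 CPM in g and 2086 to 4197 CPM in a to e. Its log2 fold change was −2.60 (SE 0.74, adjusted p = 0.365) by edgeR, and DESeq2 counted it among its 10 lower genes (adjusted p = 0.0398). It was −0.35 (SE 0.43) against f and g. Postn (periostin), a matricellular protein of healing wounds, stood at 3317, 4196 and 4457 CPM in treated wounds, 5207 CPM in f, 3359 CPM in g and 12179 to 27062 CPM in a to e, with log2 fold changes of −2.05 (SE 0.66) and −0.11 (SE 0.40). For both genes every treated wound was below every wound of a to e, and neither separated treated wounds from f and g.

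**Figure D2:**
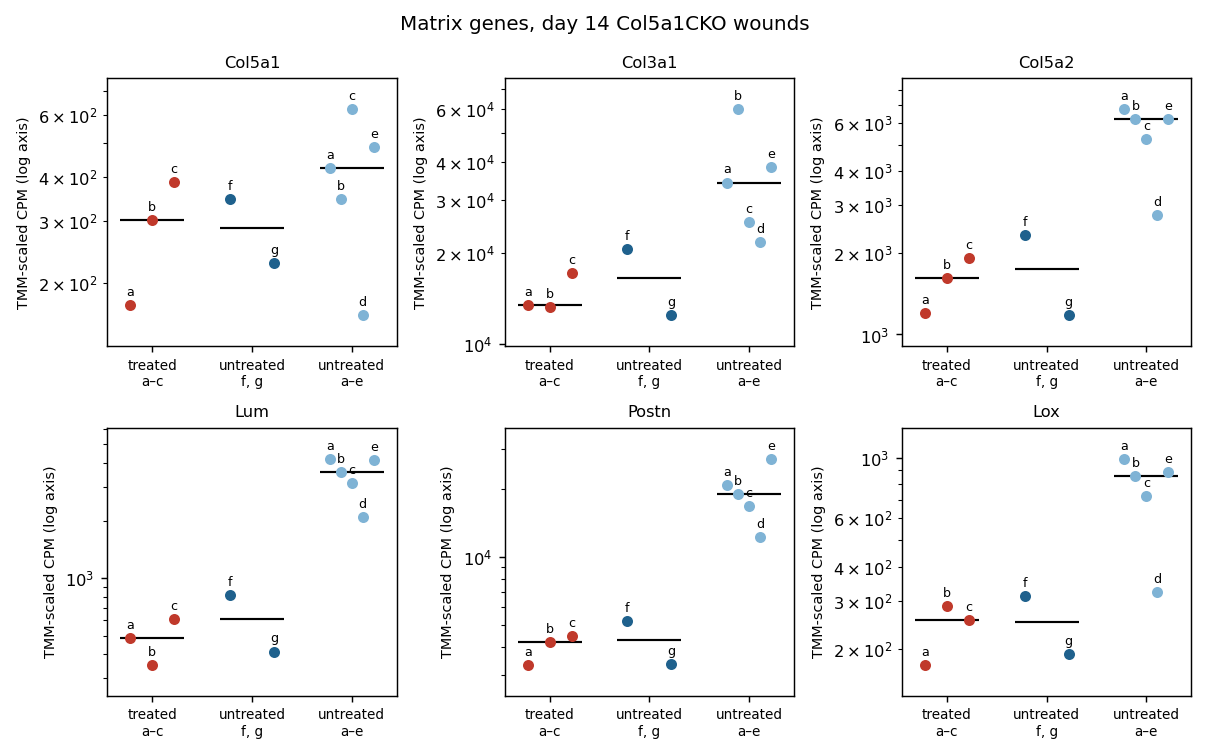
TMM-scaled CPM of 6 matrix genes in each Col5a1CKO wound at day 14, on log axes that differ between panels, with letters for replicates and lines for medians. For Lum, Postn, Col3a1 and Col5a2 the treated wounds lie beside untreated f and g and below all of a to e, whereas Col5a1 in a to e runs from 162 to 622 CPM and spans the treated wounds.

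In the list of collagen processing and crosslinking, 21 of 22 genes were negative against all 7 wounds (median −0.45) and 18 of 22 against f and g (median −0.10), beside 47.9% of all genes negative in the latter. With library set as a covariate the median was −0.16 over the 10 wounds and turned to 0.34 with the WT wounds fitted too. Lox (lysyl oxidase), which starts collagen crosslinks, stood at 175, 287 and 254 CPM in treated wounds, 312 CPM in f, 191 CPM in g and 324 to 989.9 CPM in a to e, with log2 fold changes of −1.50 (SE 0.56, adjusted p = 0.365) and −0.08. Lox and Plod2, a lysyl hydroxylase, were the 2 of 22 genes lower at an unadjusted p under 0.05 with at least 2-fold, where 5.45% of all genes were, and 0 were against f and g, where 0.328% were. Among 25 tested matrix proteases and inhibitors the medians were −0.67 and −0.02, and the first turned to 0.18 with the covariate and the WT wounds. At the same threshold 5 of the 25 (Mmp13, Adamts5, Mmp27, Plat and Timp3) were lower against all 7 wounds and 0 against f and g. Mmp13, a collagenase, stood at 253, 171 and 168 CPM in treated wounds, 349 CPM in f, 172 CPM in g and 554 to 2852 CPM in a to e (log2 fold change −2.32, SE 0.80, adjusted p = 0.365, and −0.41 against f and g).

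Of 21 genes that mark fibroblasts, 6 were positive and 15 negative against all 7 wounds (median −0.51), and 4 were positive and 17 negative against f and g (median −0.12). With library set as a covariate the median was −0.18 over the 10 wounds and turned to 0.39 with the WT wounds fitted too. The summed level of the list was 5127 to 6015 CPM in treated wounds, 7311 CPM in f, 4497 CPM in g and 4003 to 9527 CPM in a to e. At an unadjusted p under 0.05 with at least 2-fold, 5 of the 21 (Fap, Ly6a, Mfap5, Pdgfra and Prrx1) were lower against all 7 wounds, beside 5.45% of all genes, and 0 against f and g, beside 0.328%. Fap, a surface protease of activated fibroblasts, stood at 21.2, 14.8 and 23.4 CPM in treated wounds, 22 CPM in f, 20.6 CPM in g and 36.7 to 145 CPM in a to e (log2 fold change −1.60, SE 0.60, adjusted p = 0.365, and −0.11 against f and g). Crabp1, a retinoic acid-binding protein of wound fibroblasts, was the 1 gene of the list whose treated wounds were all above all 7 untreated wounds, at 268, 312 and 254 CPM against 83.1 to 251 CPM, where 0.939% of all genes were separated in this direction. The margin over f and g, at 251 and 250.2 CPM, was small beside the spread of the treated wounds, and Crabp1 missed the unadjusted threshold in both comparisons. Downward, Dpt (log2 fold change −0.41) and Clec3b (−0.67), both genes of extracellular proteins, were separated from f and g, 2 of 21 beside 3.72% of all genes, and not from all 7 wounds.

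Actin-based contractile genes of myofibroblasts had medians of −0.43 and 0.09 over 15 genes, with 0 at the unadjusted threshold in either comparison. Acta2, their best known marker, was uneven among treated wounds, at 315, 1123 and 798 CPM, against 379.6 to 1264 CPM in untreated wounds. Of 15 integrins, which bind cells to matrix, 3 (Itga8, Itgav and Itgb1) were lower at the unadjusted threshold against all 7 wounds, beside 5.45% of all genes, and 0 against f and g, beside 0.328%. Itgav, the alpha v chain, stood at 78.6, 170.0 and 113 CPM in treated wounds, 109 CPM in f, 121 CPM in g and 265 to 429.6 CPM in a to e (log2 fold change −1.23, SE 0.47, adjusted p = 0.365, and 0.07 against f and g).

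**Figure D3:**
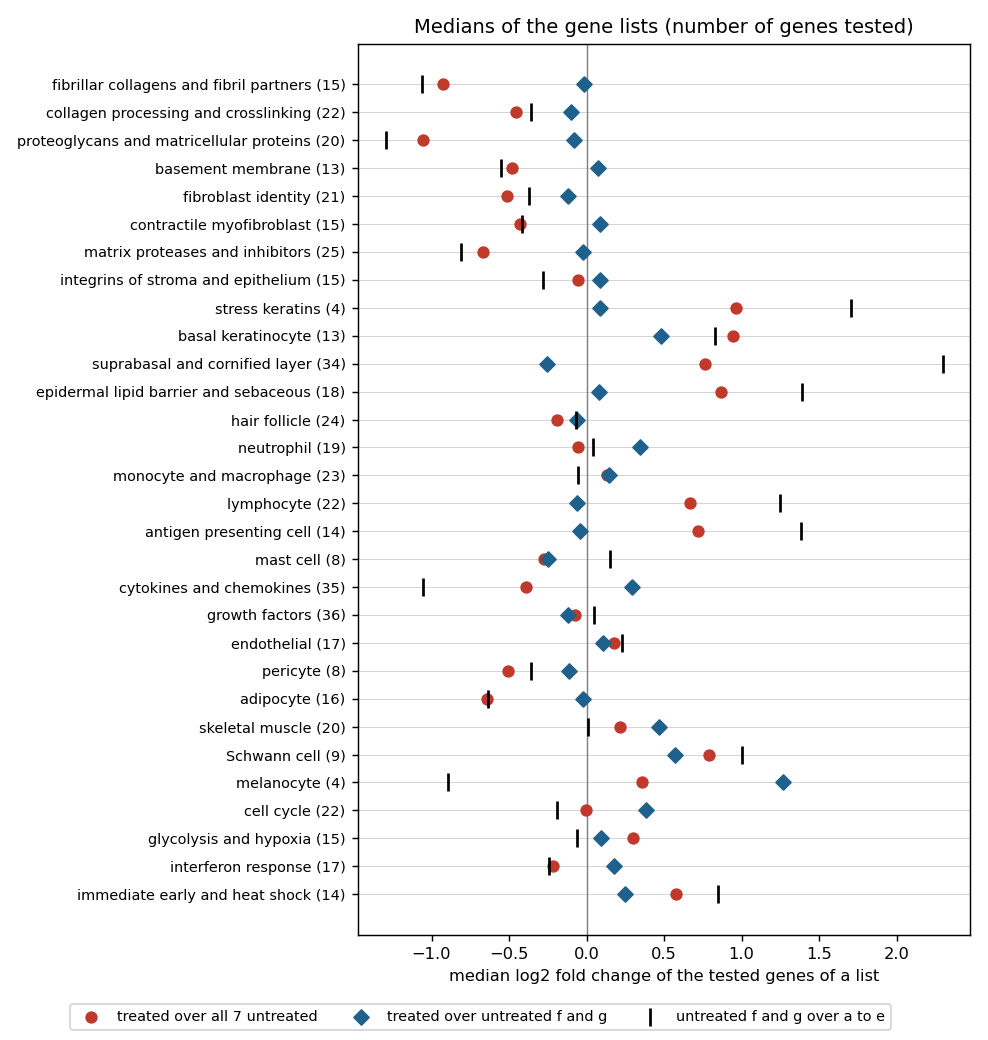
Median log2 fold change of each gene list for treated wounds over all 7 untreated wounds (circles), treated wounds over untreated f and g (diamonds) and, with no treated wound involved, untreated f and g over a to e (bars), with the number of genes tested in parentheses. For the matrix lists the circles lie near the bars, at −0.93 and −1.06 for fibrillar collagens, and the diamonds near 0.

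Epidermal genes were abundant in all 3 treated wounds, but some untreated wounds held as much. Krt14, the keratin of the basal layer, stood at 11884, 14336 and 6476 CPM in treated wounds and in untreated wounds was lowest at 8.67, had a median of 443 and was highest at 18186 CPM. Untreated d, the highest of a to e at 13226 CPM, and g, at 18186 CPM, were in the range of the treated wounds or above it, whereas f had 32 CPM. The log2 fold change of Krt14 was 1.12 (SE 1.77, adjusted p = 0.782) against all 7 wounds and 0.28 (SE 1.97) against f and g. The large SE against f and g goes with the distance between these wounds, at 32 and 18186 CPM.

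The stress keratins summed to 9333 to 17130 CPM in treated wounds. In untreated wounds they summed to 13.8 CPM at the lowest, 597.9 at the median and 25649 at the highest, with 16902 CPM in d, 25649 CPM in g and 38.7 CPM in f. Krt6a gave a log2 fold change of 0.92 (SE 1.77, adjusted p = 0.822) and Krt16 one of 1.0 (SE 1.88, adjusted p = 0.816), with 0.11 and −0.05 against f and g. None of the treated wounds was as low as the 5 untreated wounds a, b, c, e and f, and none was as high as g.

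The same 2 untreated wounds, d and g, were high in every epidermal list. The basal keratinocyte list, 13 genes of the layer that holds on to the basement membrane, summed to 9988 to 24567 CPM in treated wounds, 20230 CPM in d, 25483 CPM in g and 450 to 3069 CPM in the other untreated wounds, f included. Of its 13 genes, 12 were positive both against all 7 wounds (median 0.95) and against f and g (median 0.48), and 0 passed the unadjusted threshold in either. Suprabasal and cornified genes summed to 12354 to 26228 CPM in treated wounds, 24574 CPM in d, 65977 CPM in g and 126 to 871 CPM in the others. Their median log2 fold change was 0.77 over 34 genes against all 7 wounds and −0.26 against f and g, so its sign depended on the untreated wounds used. Krt10, the main suprabasal keratin, stood at 4631, 3034 and 1656 CPM in treated wounds, against 15709.9 CPM in g and 35.5 CPM in f, with log2 fold changes of 0.14 (SE 2.19) and −1.32 (SE 1.91). In WT wounds the suprabasal list summed to 45514 to 167391 CPM, above all 3 treated wounds.

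When f was the only untreated wound of the set, 42 of 69 epidermal genes tested were called higher in treated wounds, where 3.15% of all genes were. When g was the only one, 0 of 69 were called in either direction. The epidermal result in this library set thus differed with the untreated wound used. The products of the 18 lipid barrier and sebaceous genes seal the cornified layer. Far2, which makes the fatty alcohols of wax esters, was the 1 of the 18 with all treated wounds above all untreated ones (0.939% of all genes). It stood at 5.73, 1.85 and 2.51 CPM against 0.164 to 1.82 CPM (log2 fold change 1.94, SE 0.64, adjusted p = 0.365, and 1.30 against f and g). Its lowest treated value, 1.85 CPM, barely exceeded the 1.82 CPM of g. At the unadjusted threshold against all 7 wounds, Far2 was the 1 gene higher (0.236% of all genes). Mgst1 was the 1 gene lower (5.45% of all genes), with −1.30 (SE 0.49) and −0.07 against f and g.

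**Figure D4:**
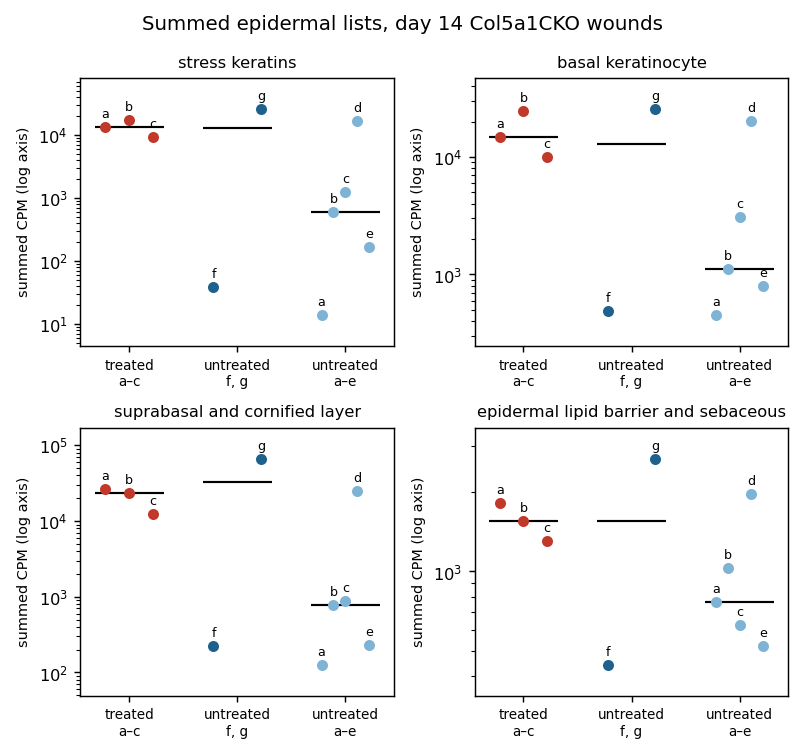
Summed CPM of 4 epidermal gene lists in each Col5a1CKO wound at day 14, on log axes, with letters for replicates and lines for medians. The 3 treated wounds group near untreated d and g in each panel, while untreated f lies far below, with 38.7 CPM of stress keratins against 25649 CPM in g.

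The summed levels of the inflammatory cell lists did not separate treated from untreated wounds. The neutrophil list summed to 10145 to 12304 CPM in treated wounds and to 2122 to 24432 CPM in untreated wounds, with 11792 CPM in f and 5340 CPM in g, and its medians were −0.05 against all 7 wounds and 0.35 against f and g. The monocyte and macrophage list summed to 6679 to 7574 CPM in treated and 3826 to 9927 CPM in untreated wounds, with medians of 0.13 and 0.14. At an unadjusted p under 0.05 with at least 2-fold, 0 of 19 and 0 of 23 genes passed in either comparison. The 3 treated wounds lay inside the untreated range in both lists. S100a8, a calcium-binding protein of neutrophils, was the 1 of 19 neutrophil genes separated upward from f and g (log2 fold change 0.39, and −0.05 against all 7 wounds), where 3.45% of all genes were. Retnla, a product of alternatively activated macrophages, was the 1 of 23 macrophage genes separated downward, where 3.72% of all genes were, at 2.01, 2.52 and 0.459 CPM against 2.66 and 12 CPM (log2 fold change −2.13, SE 0.91, unadjusted p = 0.0643), and a to e ranged from 0.854 to 15.5 CPM. Ptprc, the pan-leukocyte CD45 gene, stood at 217, 350.0 and 285 CPM in treated wounds and 139 to 711 CPM in untreated wounds (log2 fold change −0.37, SE 0.52, and 0.27 against f and g). Il1b, the interleukin 1 beta gene, gave −0.11 (SE 0.79) and 0.30 (SE 0.70), so for both genes the sign turned between the comparisons.

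Cytokines and chemokines also changed sign with the untreated wounds used. Of 35 genes, 26 were negative against all 7 wounds (median −0.39) and 23 were positive against f and g (median 0.30), while f and g differed from a to e by a median of −1.05. At the unadjusted threshold 3 of 35 were lower against all 7 wounds, a share near the 5.45% of all genes. They were Ccl7, Ccl11 and Cxcl5, which draw monocytes, eosinophils and neutrophils. Cxcl5 stood at 61.8, 28.7 and 105 CPM in treated wounds, 163 CPM in f, 11 CPM in g and 217 to 832 CPM in a to e (log2 fold change −2.69, SE 1.07, adjusted p = 0.365, and −0.44 against f and g). Ccl7 stood at 50.8, 37.9 and 63.5 CPM in treated wounds, 95 CPM in f, 18.8 CPM in g and 102 to 277 CPM in a to e (−1.49, SE 0.63, and −0.19). For both, f and g enclosed the treated wounds. Il19 is an interleukin 10 relative made by keratinocytes and macrophages. It was the 1 gene of the list higher than in f and g at the unadjusted threshold, beside 0.116% of all genes. Il19 stood at 1.28, 1.65 and 4.23 CPM against 0.703 and 0.308 CPM (log2 fold change 2.23, SE 0.79), but a to e ranged from 0.343 to 8.83 CPM. Il10, Il19 and Il24 were the 3 of 35 separated upward from f and g (3.45% of all genes), and 0 were separated upward from all 7 wounds.

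T cell and antigen presentation genes were higher in treated wounds than in a to e, and f and g shared this. Lymphocyte genes summed to 142 to 162 CPM in treated wounds, 176 CPM in f, 135 CPM in g and 31.4 to 91 CPM in a to e, and their medians were 0.67 over 22 genes and −0.06 over 21. Antigen presenting genes summed to 1937 to 2967 CPM in treated wounds, 2349.9 CPM in f, 2379.5 CPM in g and 482 to 1051 CPM in a to e. Cd74, the invariant chain of MHC class II, stood at 1321, 948 and 788 CPM in treated wounds, 966 CPM in f, 1017 CPM in g and 165 to 387 CPM in a to e (log2 fold change 1.03, SE 0.56, adjusted p = 0.43, and 0.04 against f and g). Cd4, the helper T cell co-receptor, stood at 29.1, 17.5 and 30.7 CPM against 5.6 to 22.6 CPM in untreated wounds (0.93, SE 0.35, adjusted p = 0.365, and 0.44).

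Genes of cell division leaned upward within the library set. Of 22 cell cycle genes, 21 were positive against f and g with a median of 0.39, and 1 was negative, beside 47.9% of all genes. The summed level of the list overlapped, at 588 to 933 CPM in treated wounds, 540 CPM in f, 603 CPM in g and 543 to 1164 CPM in a to e. In 6 of the 22 genes all treated wounds were above both f and g (3.45% of all genes were separated in this direction). Against all 7 wounds 11 were positive and 11 negative, with a median of 0.00, and 2 of 22 were separated upward, beside 0.939% of all genes. No gene of the list reached the unadjusted threshold with a 2-fold difference in either comparison. The 6 genes were Birc5, Plk1, Ccnb1, Ccnb2, Cenpe and Cenpf, which act from mitotic entry to division.

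Birc5 (survivin), which guides chromosome segregation, stood at 25.4, 31.8 and 26.1 CPM in treated wounds, 16.4 CPM in f, 19.6 CPM in g and 10.05 to 17.5 CPM in a to e. All 3 treated wounds exceeded all 7 untreated wounds. Its log2 fold change was 0.63 in both comparisons (SE 0.21, adjusted p = 0.365 against all 7, and SE 0.20 against f and g). Plk1, a kinase of mitotic entry, was likewise separated from all 7 wounds, at 17.2, 26 and 20.6 CPM against 7.55 to 16.7 CPM (0.76, SE 0.27, adjusted p = 0.365, and 0.57 against f and g). Foxm1, the transcription factor of the mitotic genes, overlapped in 1 wound, at 20.3, 33.5 and 24.1 CPM against 7.23 to 20.9 CPM (0.67, SE 0.28, and 0.42). Cenpf, a kinetochore protein, was above f and g but not above a to e, at 22.6, 27.1 and 19.9 CPM against 14.6 and 19.7 CPM, and 23 to 55.2 CPM in a to e.

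Of the genes lower in both comparisons at the unadjusted threshold, Col4a5 had the smallest p against all 7 wounds. It encodes the alpha 5 chain of type IV collagen, the sheet-forming collagen of basement membranes, and lies on chromosome X at 137909928 to 138123778 on the plus strand (NCBIM37, GENCODE M1). It stood at 3.49, 6.31 and 5.05 CPM in treated wounds, 14.8 CPM in f, 8.87 CPM in g and 9.21 to 17 CPM in a to e. Every treated wound was below every untreated wound of either library set, which was so for 0.952% of all genes. The log2 fold change was −1.56 (SE 0.31, adjusted p = 0.365) against all 7 wounds and −1.26 (SE 0.39, unadjusted p = 0.0205) against f and g, and DESeq2 counted it among its 10 lower genes (adjusted p = 0.00939).

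Col4a6 lies beside it in the opposite direction, at 137599946 to 137908619 on the minus strand, and encodes the alpha 6 chain, which assembles with alpha 5 in the basement membrane under the epidermis. It stood at 0.658, 1.51 and 0.674 CPM in treated wounds against 6.27 CPM in f and 4.8 CPM in g (log2 fold change −2.54, SE 0.50, unadjusted p = 0.00335). In a to e it was at 0 to 0.369 CPM, below the treated wounds, so the lower level was seen within the library set only. Col4a6 was looked at after the values of Col4a5 were known. The list of 13 other basement membrane genes had medians of −0.48 against all 7 wounds and 0.08 against f and g. Lama5, a laminin chain, was the 1 gene of that list separated downward from f and g (−0.42), beside 3.72% of all genes. Nid1 (nidogen) links laminin to collagen IV. It was the 1 gene of that list lower against all 7 wounds at the unadjusted threshold, beside 5.45% of all genes. Its log2 fold change was −1.15 (SE 0.47) against all 7 wounds and −0.01 against f and g.

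**Figure D5:**
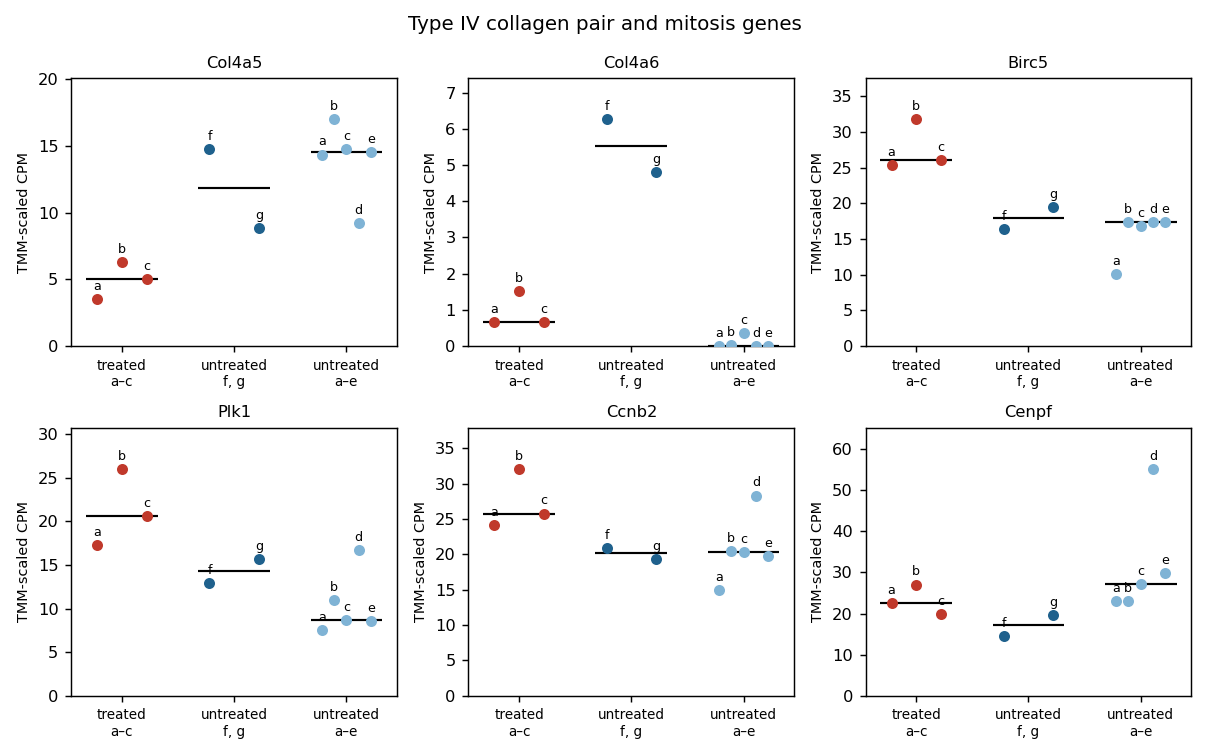
TMM-scaled CPM of Col4a5, Col4a6 and 4 mitosis genes in each Col5a1CKO wound at day 14, on axes from 0, with letters for replicates and lines for medians. Col4a5 is below all 7 untreated wounds in each treated wound and Birc5 and Plk1 are above all 7. Ccnb2 and Cenpf separate treated wounds from f and g only. For Col4a6 the treated wounds lie below f and g but above a to e.

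Besides Col4a5, genes lower at the unadjusted threshold in both comparisons were Cldn10, Slc12a2 and Trpc6, and those higher in both were Ces4a and Gm13124. Trpc6, a calcium-permeable channel, stood at 3.19, 2.19 and 2.11 CPM in treated wounds against 3.36 to 16.1 CPM in untreated wounds, with no overlap (log2 fold change −1.82, SE 0.53, and −1.98, SE 0.69). Slc12a2, a sodium, potassium and chloride cotransporter, also did not overlap, at 37.9, 40.8 and 35.1 CPM against 43.8 to 369 CPM, where the highest value is that of f (−1.67, SE 0.67, and −2.47, SE 0.87). Cldn10, a claudin of tight junctions, stood at 1.81, 2.41 and 2.24 CPM, below 7.19 CPM in f and 3.7 CPM in g but within 1.61 to 13.1 CPM in a to e (−1.59, SE 0.56, and −1.35, SE 0.41). Ces4a, a carboxylesterase, stood at 16.3, 6.11 and 9.74 CPM against 0 to 3.51 CPM in untreated wounds (3.12, SE 1.35, and 2.25, SE 0.71). Gm13124, a predicted gene, is near the detection limit, at 0 CPM in a to e, 0.183 CPM in f, 0.216 CPM in g and 0.494, 0.673 and 3.31 CPM in treated wounds. None of these passed an adjusted p under 0.05 in edgeR.

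Among all genes without overlap against all 7 wounds and with the same sign against f and g, the 6 of smallest unadjusted p in each direction were taken. The higher ones were Gm13124, Foxj1, Spink4, Bysl, Obfc2b and Mnt. Bysl, a factor of small ribosomal subunit assembly, stood at 30.9, 35.9 and 28.8 CPM in treated wounds, 20.7 CPM in f, 27.4 CPM in g and 11.5 to 17.6 CPM in a to e (log2 fold change 0.75, SE 0.24, and 0.41). Mnt, a repressor that pairs with MAX, stood at 45.9, 55.1 and 46.4 CPM, against 40.3 CPM in f, 37 CPM in g and 18.4 to 27.3 CPM in a to e (0.79, SE 0.26, and 0.34). Foxj1, the transcription factor of motile cilia, stood at 0.658, 2.5 and 0.796 CPM in treated wounds against 0.0949 to 0.428 CPM (2.34, SE 0.65, and 1.88). Spink4 stood at no more than 0.494 CPM in any Col5a1CKO wound.

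The lower ones were Col4a5, Pvrl3, Rpa3, Gm5595, Trim23 and Zfp429. Pvrl3 (nectin 3), a cell adhesion protein, stood at 10.3, 11.9 and 14.1 CPM in treated wounds, 15.8 CPM in f, 19.7 CPM in g and 30.9 to 53.2 CPM in a to e (log2 fold change −1.69, SE 0.42, and −0.55). Rpa3, a subunit of the single-strand DNA-binding complex, stood at 7.57, 6.39 and 8.27 CPM, 12 CPM in f, 9.21 CPM in g and 15.4 to 25 CPM in a to e (−1.31, SE 0.33, and −0.52). Trim23, a ubiquitin ligase, stood at 9.12, 10.7 and 10.3 CPM, 10.9 CPM in f, 16.1 CPM in g and 25.7 to 33.4 CPM in a to e (−1.45, SE 0.36, and −0.43). In these 3 genes f and g lay between the treated wounds and a to e. All of these had an adjusted p of 0.365 in edgeR.

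The calls of DESeq2 against all 7 wounds rested in part on sex-linked RNA. Of its 10 lower genes, 4 were the Y-linked Ddx3y, Eif2s3y, Uty and Kdm5d, which had 193 to 308, 88.7 to 129, 51.9 to 62.3 and 29.5 to 31.2 CPM in untreated wounds a to d and less than 1 CPM in every other untreated and treated wound. Lss (lanosterol synthase), a cholesterol enzyme, stood at 34.2, 37.2 and 37.9 CPM in treated wounds, 10.5 CPM in f, 52.9 CPM in g and 6.17 to 13.3 CPM in a to e (edgeR log2 fold change 1.15, SE 0.60, adjusted p = 0.423, and 0.22 against f and g). Mark4, a microtubule-associated kinase, stood at 78.9, 129 and 88 CPM, 44.8 CPM in f, 133 CPM in g and 18.3 to 29.9 CPM in a to e (1.16, SE 0.57, adjusted p = 0.409, and 0.17). DESeq2 gave larger log2 fold changes against all 7 wounds, 1.70 for Lss and 1.65 for Mark4, and the reason was not tested. In both genes treated wounds were above every untreated wound except g. The same was so for Irx3, Smpd1 and Kcnk6, also among the 9, named after their values were seen.

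Among growth factors, 5 of 36 genes were lower against all 7 wounds at the unadjusted threshold, namely Angpt1, Hgf, Igf1, Pdgfc and Rspo3, beside 5.45% of all genes, and 0 were against f and g, beside 0.328%. Angpt1 (angiopoietin 1), which steadies vessels, stood at 4.71, 2.08 and 3.46 CPM in treated wounds, 4.62 CPM in f, 2.86 CPM in g and 21.3 to 31.3 CPM in a to e (log2 fold change −2.62, SE 0.76, adjusted p = 0.365, and −0.14 against f and g). Of 17 endothelial genes, Flt4 (VEGF receptor 3), the receptor of lymphatic vessels, was the 1 higher at that threshold (0.236% of all genes), at 24.2, 15.4 and 26.1 CPM against 19.2 CPM in f, 8.62 CPM in g and 1.28 to 12.3 CPM in a to e (1.29, SE 0.58, and 0.64). The pericyte list held 1 of 8 genes lower against all 7 wounds, Rgs5, a regulator of G protein signalling, at 52.3, 37.6 and 63 CPM in treated wounds, 33.2 CPM in f, 39.6 CPM in g and 111 to 167 CPM in a to e. Its log2 fold change was −1.23 (SE 0.52) against all 7 wounds and turned to 0.49 (SE 0.27) against f and g. The adipocyte list held 1 of 16, Fabp4, a fatty acid carrier, at 216, 53.4 and 107 CPM, 166 CPM in f, 215 CPM in g and 157 to 352 CPM in a to e (−1.03, SE 0.44, and −0.60, SE 0.59). Immediate early and heat shock genes, which respond within minutes to handling of tissue, had medians of 0.58 and 0.25 over 14 genes, and Dusp1, a phosphatase among them, stood at 582, 386 and 303 CPM in treated wounds, 523 CPM in f, 136 CPM in g and 55.1 to 198 CPM in a to e (1.13, SE 0.57, adjusted p = 0.416, and 0.34).

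Muscle content varied widely inside the groups. The skeletal muscle list summed to 43871 CPM in treated wound a, 467 CPM in b and 559.6 CPM in c, and to 89.9 to 27346 CPM in untreated wounds. Acta1 and Ckm, the actin and creatine kinase of muscle fibres, stood at 7097 and 4028 CPM in treated wound a and at no more than 157 and 35 CPM in b and c. Hair follicle genes, for which 24 of 28 could be tested, had medians of −0.19 and −0.06. Krt33a and Lgr5, 2 of the 24, were lower against all 7 wounds at the unadjusted threshold, beside 5.45% of all genes. Krt33a was near the detection limit in treated wounds, at 0.122 to 0.252 CPM, and was not tested against f and g. Lgr5 gave −0.06 there. Schwann cell, mast cell, melanocyte, interferon and glycolysis lists held 0 genes at that threshold in either comparison, with medians between −0.27 and 0.79 against all 7 wounds and between −0.25 and 1.27 against f and g.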

How the data were processed

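Total RNA from skin wounds was made into strand-specific libraries with the TruSeq kit and sequenced from one end with 50 bp reads. The authors' deposited table holds raw counts per RefSeq transcript, unnormalized; the submitters' processing notes name HISAT2 and mm9, and the methods allow 2 mismatches per read. Of the 29082 table lines, 30 had no gene symbol (at most 0.0694% of a library's counts) and were left out, and for each of 22830 symbols the line with the largest total count was kept. Samples were grouped by title. The labels' treatment field names only wounding for the fibroblast-titled samples, so the titles were followed. Nothing in the labels says that the samples of a group are separate animals, so p-values measure the spread between samples.

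Counts were fitted with edgeR 4.0.16 in R 4.3.3 (quasi-likelihood test with robust estimates and TMM factors, genes kept by filterByExpr at a count of 10, p-values adjusted by Benjamini-Hochberg over all genes tested), for 3 against 7 and 3 against 2 wounds. Every log2 fold change, SE and adjusted p printed is edgeR's unless DESeq2 (1.42.0) is named. A call was an adjusted p under 0.05 with at least 2-fold. Ratios were tested with 2-sided exact permutation tests. The scripts were tested on simulated data. CPM values were made in Python 3.11.15 and R.

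Genes named were drawn from the fibrillar collagen list and the members of each of 31 gene lists with the smallest unadjusted p (1 each, and 2 more where under 0.05). They were also drawn from the 6 genes per direction without overlap and of smallest p, and from 7 genes whose RNA or protein the study measures. The 2 DESeq2 calls per direction of smallest adjusted p were a further source. Not every gene so chosen is described. Others (Krt10, Krt14, Acta2, Ckm, Crabp1, Pdgfra, Dcn, Retnla, Il19, Ccnb2, Cenpe, Cenpf, Col4a6, Lama5, Dpt, Clec3b, S100a8, the genes called in both comparisons and the remaining DESeq2 and list members) were named after their values were seen. The members and lists were chosen with earlier results of these data known. Alternatives were DESeq2, RLE and library-size scaling, no filter, summed transcripts, other reference genes for the Col5a1 ratio, library set as a covariate, a replicate block, and leaving out each wound.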

Additional observations from a re-analysis of the deposited data

Results flagged for a closer look

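Of 88 values tested in the 7 untreated wounds, 7 had a highest or lowest wound that stood apart from the others by Dixon's test with a critical value of 0.568, which by chance happens in about 1 of 20 groups. Untreated wound a was low in 2 mitosis genes, Birc5 at 10.05 CPM with the others at 16.4 to 19.6, and Foxm1 at 7.23 CPM with the others at 13.6 to 20.9. Untreated wound g was low in 2 chemokines, Ccl7 at 18.8 CPM with the others at 95 to 277, and Cxcl5 at 11 CPM with the others at 163 to 832. It was high in Lss, at 52.9 CPM with the others at 6.17 to 13.3, and in Spink4, at 0.123 CPM with the others at 0. Untreated wound d was high in Dct, a melanocyte enzyme, at 4.08 CPM with the others at 0.106 to 0.801.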

How the results depend on the processing

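RLE factors, library size alone, no count filter, summed transcripts and library set as a covariate left 0 genes called against all 7 wounds, by edgeR. DESeq2 called 9 higher and 10 lower, and an unadjusted p under 0.05 gave 37 and 854. Untreated wounds a to e alone gave 882 and 1330. Leaving out 1 wound gave 0 to 2 higher, with 2 without untreated g, and 0 lower. The replicate block, possible for letters a to c only, gave 1415 and 1125, and the same wounds without the block 1704 and 1412. In these 6 wounds treatment cannot be told apart from library set or sex-linked RNA, since untreated a to c are all in the other set and Y-positive and treated a to c are not. Same-lettered deviations correlated at 0.399, −0.21 and 0.114, so the letters were not taken as pairs. Against f and g an unadjusted p under 0.05 gave 18 and 51, and leaving out 1 wound gave 0 to 503 higher and 0 to 64 lower, the highest without g. The difference in log2 Col5a1 ratio was −0.34 with Col1a1 as reference, 0.57 with Col3a1, 0.94 with Col5a2, −0.041 against f and g, 0.158 with the replicate block and 0.033 to 0.442 leaving out 1 wound.

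With library set as a covariate over all day 14 groups, log2 fold changes turned to 0.56 for Col5a1, 0.66 for Col1a1, 0.64 for Col1a2, 0.43 for Col3a1, 0.48 for Col5a2, 0.35 for Col12a1, 0.03 for Fbn1, 0.52 for Lum, 0.57 for Postn, 0.42 for Lox, 0.46 for Fap, 0.37 for Nid1, −1.04 for Krt10, 0.34 for Ccl7, 1.32 for Il1b, 0.58 for Ptprc, 0.40 for Angpt1, 0.022 for Itgav, −0.0219 for Foxm1, −0.18 for Bysl, −0.27 for Mnt, −0.12 for Lss, −0.39 for Mark4, 0.59 for Col11a1, 0.072 for Col5a3, 0.65 for Col6a2, 0.97 for Rgs5, 0.78 for S100a8, 0.43 for Dpt and 0.061 for Clec3b. With the covariate over the 10 wounds they turned to −0.13 for Krt16, −1.40 for Krt10, −0.025 for Cd74, 0.25 for Il1b, 0.22 for Ptprc, 0.0082 for Itgav, 0.14 for Col11a1, 0.0074 for Col6a2, 0.42 for Rgs5 and 0.33 for S100a8. Against f and g they turned to 0.012 for Col1a1, −0.054 for Krt16, −1.32 for Krt10, 0.30 for Il1b, 0.27 for Ptprc, 0.067 for Itgav, 0.20 for Col11a1, 0.065 for Col6a2, 0.49 for Rgs5 and 0.39 for S100a8. All day 14 groups in one fit gave 0.03 for Il1b and 0.089 for S100a8, which was 0.072 by library size alone and 0.29 with the replicate block. Leaving out 1 wound, Il1b ranged from −0.41 to 0.45, S100a8 from −0.19 to 0.50 and Krt10 from −0.26 to 2.46. Of 30 list medians, 8 moved with the covariate over the 10 wounds and 16 with it over all day 14 groups. The latter fit assumes the same set difference in Col5a1CKO and WT wounds. The causes were not tested. With 2 untreated wounds in the library set of the treated ones, small differences could not be resolved.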
